A study of Homo sapiens with 12 samples.

Results

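The 8 enzyme genes of asparagine, arginine, proline and transaminase metabolism described here were followed through 12 RNA sequencing libraries of K562, a cell line from a chronic myeloid leukaemia. They are ASNS, ASS1, ASL, ALDH18A1, PYCR1, GPT2, GOT1 and GOT2, 8 of the 58233 genes listed in each deposited table, found by gene symbol with 1 gene identifier for each. The genes were chosen by their pathway with results of these libraries known, among them the low ASNS and ASS1 levels of the FOXK1 pools against the SCR pools. The FOXK1 values of all 8 genes are therefore given as a description, with no test. The FOXK2 tests use the same SCR pools, so they are not independent of that choice. All 8 genes passed the filter on low values, which asked for 1 FPKM or more in 2 libraries of a FOXK comparison and in 3 of the ASXL1 comparison.

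Total RNA was sequenced from cells grown in RPMI-1640 medium with serum, a medium that itself supplies asparagine, arginine and proline. The libraries fall into 5 groups: 3 parental clones, 3 clones in which the mutant ASXL1 allele was removed with CRISPR/Cas9, 2 pools labelled SCR knockout, 2 FOXK1 knockout pools and 2 FOXK2 knockout pools. Titles and genotypes name FOXK2 for the last group, although the treatment text shared by all samples names FOXK1 in both places. Every group is K562, and the labels give an ASXL1 change for the knockout clones alone. ASXL1 is a chromatin regulator that works with the BAP1 deubiquitinase, and FOXK1 and FOXK2 are forkhead transcription factors that bind this complex. A clone is the offspring of a single cell and a pool mixes cells with different edits, and no editing efficiency is given in the sources used here. The 3 comparisons set the ASXL1 knockout clones against the parental clones, and each set of FOXK pools against the same 2 SCR pools.

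Values are FPKM, as the column headings name them, a unit that usually scales fragments to transcript length and library size. The headings do not say how the values were scaled, so a level is compared here between libraries and never between genes. The columns summed to 824692 to 975657 FPKM, and 13348 to 13681 genes reached 1 FPKM in a library. The ASXL1 knockout clones held the lowest sums, 824692 to 839261 FPKM, against 899097 to 961495 in the parental clones. Read depth is unknown. ASXL1 mRNA fell from 49.4 ± 9.36 FPKM (SD, n = 3) in parental clones to 29.4 ± 2.53 (n = 3) in the knockout clones (limma adjusted p = 0.0142, and 0.0568 without ASXL1 knockout replicate 3). The authors' deposited table gives ASXL1 a log2 change of only -0.08 with an adjusted p of 0.436, so its deposited values differ on whether the transcript fell. FOXK2 mRNA fell from 41.7 ± 1.34 (n = 2) to 26.5 ± 1.45 (n = 2) in its pools (limma adjusted p = 0.0445), a call lost with any 1 of these pools left out (0.206 to 0.457), and the authors' deposited table lists -0.59 with an adjusted p of 2.521e-17. FOXK1 mRNA averaged 6.25 FPKM in SCR pools, and 5.83 in those with the FOXK1 knockout (limma adjusted p = 0.648). Its 2 values there, 5.59 and 6.07, lay below the 6.24 and 6.27 of the SCR pools, and the authors' deposited table lists -0.26 with an adjusted p of 0.0189. All 9 K562 and erythroid marker genes reached 1 FPKM in every library. Their summed level was 17783 to 18742 FPKM in SCR pools, 29328 to 30572 in FOXK1 pools, 26677 to 30540 in FOXK2 pools, 13753 to 25599 in parental clones and 12194 to 17701 in ASXL1 knockout clones. In the ASXL1 comparison GATA1 and KLF1 of that list were called lower (log2 changes -0.44 and -0.41, limma adjusted p = 0.0061 and 0.0097), beside 14.4% of all tested genes. In the FOXK1 comparison 4 of the 9 were called higher, beside 0.679% of all tested genes. Of the lymphoid markers, MS4A1 was listed at 0 in every library and CD3D was at 19.2 to 67.0 FPKM. CD3D was lower in the ASXL1 knockout clones (-0.51, limma adjusted p = 0.0194). Of 6 epithelial and fibroblast markers EPCAM made up most of the sum and KRT5 was listed at 0. That sum was 72.2 to 78.4 in parental clones, 91.7 to 105.7 in ASXL1 knockout clones, 67.6 to 69.4 in SCR, 76.5 to 76.8 in FOXK1 and 66.8 to 67.4 in FOXK2 pools, with EPCAM called higher by limma in the ASXL1 knockout clones (log2 change 0.37). All 4 monocyte and granulocyte markers were below 1 FPKM in every library. The part of these shifts in the enzyme results was not tested. In bulk RNA, fewer cells expressing a gene and less RNA per cell cannot be told apart.

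Asparagine synthetase, encoded by ASNS, makes asparagine from aspartate with glutamine as nitrogen donor. Arginine is made from citrulline and aspartate by argininosuccinate synthase (ASS1) and argininosuccinate lyase (ASL), and some tumours that lose ASS1 depend on arginine from outside. Proline is made from glutamate by ALDH18A1 and then a pyrroline-5-carboxylate reductase such as PYCR1, both in mitochondria. GPT2 is the mitochondrial alanine transaminase, and the cytosolic GOT1 and mitochondrial GOT2 interconvert aspartate and glutamate within the malate-aspartate shuttle. ASNS is a textbook target of ATF4, the transcription factor that cells make more of when amino acids run short.

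ASNS lies on chromosome 7 (97852118 to 97872542, minus strand, GENCODE 29 on GRCh38). It shares exon sequence on the same strand with AC079781.5, for which no level is given here. The ASNS promoter was examined for the core of the amino acid response element, TGATGNAA, the element through which ATF4 acts. A promoter here is the RefSeq window on GRCh38.p14 from 250 bases before to 50 after an annotated start. The stretch below holds a match, in capitals, 68 bases before an annotated ASNS start, and lies within an exon of another annotated ASNS transcript. Of 35116 promoters in the RefSeq table, 3.62% hold this core on either strand. The stretch is shown because ASNS is a known ATF4 target and was low in all 4 FOXK pools.
ASNS, chr7:97872458-97872487, minus strand: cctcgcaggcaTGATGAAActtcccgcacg

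ASNS mRNA was 202 and 204 FPKM in SCR pools, 85.7 and 83.0 in the FOXK1 pools, and 87.5 and 89.6 in the FOXK2 pools. All 4 FOXK pools lay below both SCR pools and below the other 8 libraries. The FOXK1 mean differed from the SCR mean by -58.4%, a log2 difference of -1.26 (SE 0.04), given without a test. In the FOXK2 pools ASNS fell by 1.19 on the log2 scale (SE 0.05, limma adjusted p = 0.0158), a change of the mean of -56.3%. The authors' deposited table gives ASNS a log2 change of -1.35 in the FOXK1 comparison, and of -1.27 with an adjusted p of 7.41e-88 in the FOXK2 comparison. Leaving out any 1 of the 4 pools kept the FOXK2 difference between -1.20 and -1.17 but raised its adjusted p to 0.171 without FOXK2 replicate 2, 0.275 without FOXK2 replicate 1, 0.362 without SCR replicate 1 and 0.408 without SCR replicate 2. With 1 library left in a group, that library is assumed to vary like the others.

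ASNS was also lower in the ASXL1 knockout clones, by a smaller step. It was 265, 279 and 278 FPKM in the parental clones and 232, 230.5 and 249 in the knockout clones. Every knockout clone lay below every parental clone, and both sets lay above all 6 pools. The fall was 0.21 on the log2 scale (SE 0.05, limma adjusted p = 0.0256). The median gene of that comparison was at -0.06, and with median-ratio scaling ASNS was at -0.15 (limma adjusted p = 0.0691). The call was also lost without parental replicate 2 (limma adjusted p = 0.0980), parental replicate 3 (0.0513), ASXL1 knockout replicate 1 (0.101) or ASXL1 knockout replicate 2 (0.0735). The authors' deposited table lists -0.18 with an adjusted p of 0.0219.

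**Figure D1:**
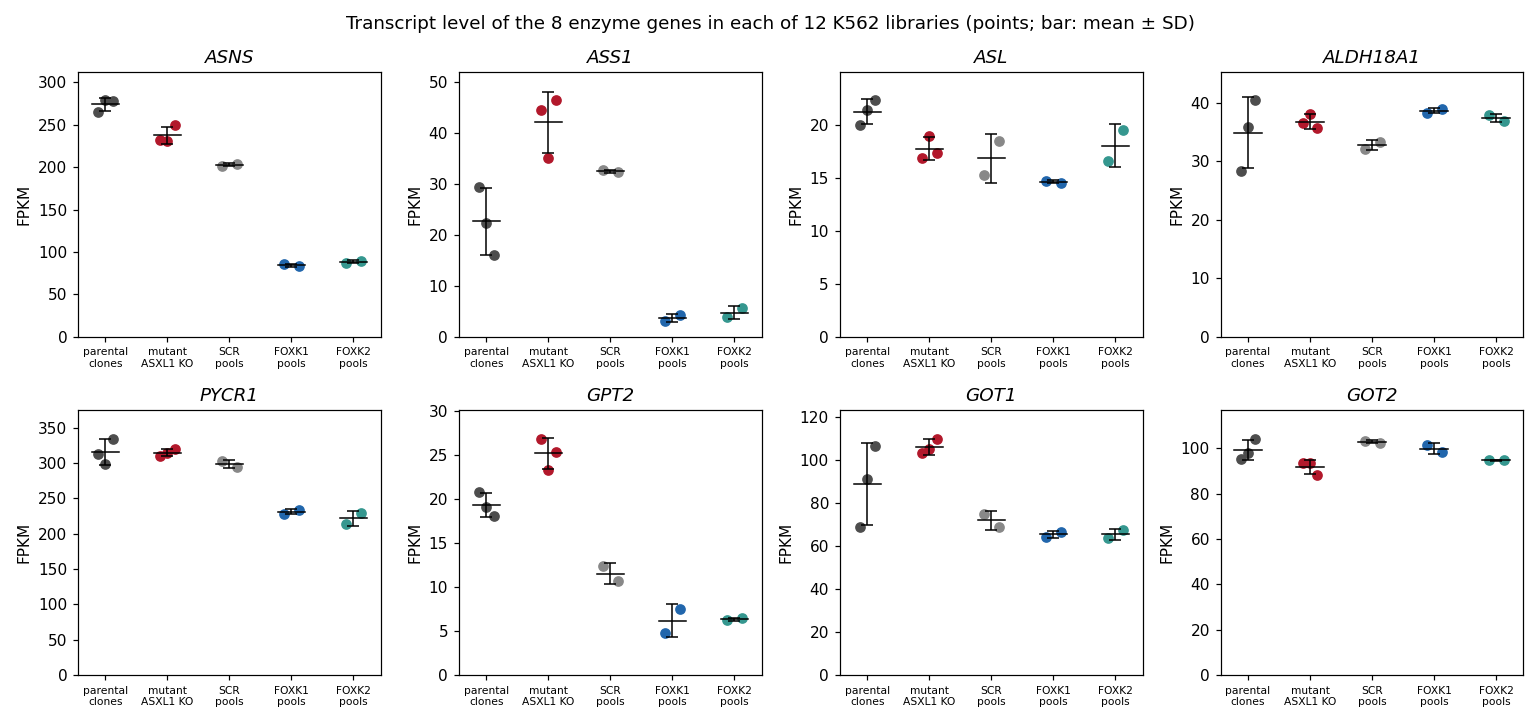
FPKM of each of the 8 enzyme genes (vertical axes, from 0, a different scale for each gene) in the 12 libraries, by group; points are libraries and bars the group mean ± SD. ASNS and ASS1 in the 4 FOXK pools sit apart from all other libraries, at 83.0 to 89.6 FPKM and 3.165 to 5.63 FPKM, while for ASL, ALDH18A1, PYCR1, GOT1 and GOT2 the highest library is at most 1.73 times the lowest.

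ASS1 (chromosome 9, 130444929 to 130501274, plus strand) varied most among the 8 genes, with its highest library 14.6 times its lowest. It was 32.7 and 32.2 FPKM in SCR pools, 3.165 and 4.28 in the FOXK1 pools, and 3.88 and 5.63 in the FOXK2 pools. The FOXK1 and FOXK2 values overlap, and all 4 lie far below the other 8 libraries. The FOXK1 mean differed from the SCR mean by -88.5%, a log2 difference of -2.83 (SE 0.13) given without a test. In the FOXK2 pools ASS1 fell by 2.56 on the log2 scale (SE 0.16, limma adjusted p = 0.0167), a change of the mean of -85.3%. By size of fold change ASS1 ranked 13 among 13697 tested genes in the FOXK1 comparison and 13 among 13672 in the FOXK2 comparison. These folds add 1 FPKM to each value, which lessens the change of a low gene. With 0.1 FPKM added in place of 1, the FOXK1 difference was -3.11. The authors' deposited table lists -3.19 for FOXK1, and -2.79 with an adjusted p of 1.62e-100 for FOXK2. Without FOXK2 replicate 1 the FOXK2 difference was -2.33 and without FOXK2 replicate 2 it was -2.78. The limma adjusted p was then 0.275 and 0.132, and it was 0.375 without SCR replicate 1 and 0.437 without SCR replicate 2.

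In the clones ASS1 was higher after knockout. It was 29.4, 22.3 and 16.1 FPKM in the parental clones and 44.5, 35.1 and 46.4 in the ASXL1 knockout clones. The groups do not overlap, although the parental clones spread widely, with a coefficient of variation of 29.4%. ASS1 rose by 0.90 on the log2 scale (SE 0.21, limma adjusted p = 0.0260), a mean 85.9% higher. The call was lost without parental replicate 2 (limma adjusted p = 0.0763), ASXL1 knockout replicate 1 (0.0896) or ASXL1 knockout replicate 3 (0.0959). The authors' deposited table lists 0.96 with an adjusted p of 4.59e-07.

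ASS1 has 11 named copies in the tables, and the way their shared reads were assigned is not given in the sources used here. Their summed level was 2.69 to 5.33 FPKM over the libraries, nearly all of it from ASS1P12. ASS1P12 was 4.90 ± 0.324 FPKM (SD, n = 2) in SCR pools, 3.50 ± 0.211 (n = 2) in FOXK1 pools and 4.44 ± 0.0608 (n = 2) in FOXK2 pools. ASS1 itself was listed at 3.165 to 5.63 FPKM in the 4 FOXK pools, so its level there is uncertain by whatever reads the copies share. In the parental and ASXL1 knockout clones the copy stood at 4.14 ± 1.32 (n = 3) and 3.91 ± 0.896 (n = 3).

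ASL (chromosome 7, 66075798 to 66093558, plus strand), the enzyme after ASS1, stayed close to its controls. It was 15.2 and 18.5 FPKM in SCR pools, 14.7 and 14.5 in the FOXK1 pools, and 16.6 and 19.5 in the FOXK2 pools. The FOXK1 pools lay just under both SCR pools, with a log2 difference of -0.19 (SE 0.11) that was -0.32 without SCR replicate 1 and -0.054 without SCR replicate 2. The FOXK2 pools overlapped them, with 0.09 (SE 0.13, limma adjusted p = 0.725), -0.038 without SCR replicate 1 and 0.23 without SCR replicate 2. ASL was 19.9, 21.4 and 22.3 FPKM in parental clones and 16.9, 18.9 and 17.4 in ASXL1 knockout clones. All 3 knockout clones were lower, at a log2 difference of -0.25 (SE 0.08), but limma's adjusted p was 0.0560. Of 14 alternatives 1 gave a call, the filter of 5 FPKM with a limma adjusted p of 0.0451, and the highest p was 0.173. With median-ratio scaling ASL was at -0.19 (limma adjusted p = 0.105). The authors' deposited table gives ASL in this comparison as -0.27 with an adjusted p of 0.0211. ASL shares exon sequence on the same strand with AC068533.4, which was 0.139 to 3.50 FPKM over the libraries.

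The proline enzymes stood on different sides of the SCR pools in the FOXK pools. ALDH18A1 (chromosome 10, 95605929 to 95656706, minus strand), which starts the route from glutamate, was 32.1 and 33.3 FPKM in SCR pools, 38.3 and 39.0 in the FOXK1 pools, and 37.8 and 36.9 in the FOXK2 pools. It was the 1 member above both SCR pools in all 4 FOXK pools. The log2 differences were 0.23 (SE 0.05) for FOXK1, with no test, and 0.19 (SE 0.06, limma adjusted p = 0.199) for FOXK2. The parental clones, at 28.4, 35.8 and 40.4 FPKM, held both the lowest and the highest of the 12 libraries. The ASXL1 knockout clones, at 36.6, 38.1 and 35.6, lay inside that span, with a log2 difference of 0.09 (SE 0.12, limma adjusted p = 0.636).

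PYCR1 (chromosome 17, 81932384 to 81942412, minus strand), which makes proline in the last step, was 303 and 294 FPKM in the SCR pools. It was 228 and 234 in the FOXK1 pools and 214 and 229 in the FOXK2 pools. All 4 FOXK pools lay below the other 8 libraries. The FOXK1 mean differed from the SCR mean by -22.5%, a log2 difference of -0.37 (SE 0.04), given without a test. For FOXK2 the difference was -0.43 (SE 0.06), -25.6% of the mean, with a limma adjusted p of 0.0607. That p was 0.0321 with median-ratio scaling, 0.0362 with upper-quartile scaling, 0.0472 with a filter of 5 FPKM and 0.0225 in a joint fit of the 6 pools. In the other 8 of 12 alternatives it missed the threshold, with 0.148 without a variance trend, 0.170 without a filter and up to 0.475 with 1 pool left out. The authors' deposited table lists -0.34 with an adjusted p of 8.8e-06. PYCR1 was 313, 298 and 335 FPKM in parental clones and 309, 313 and 319 in ASXL1 knockout clones, and the groups overlap (log2 difference -0.00364, SE 0.05, limma adjusted p = 0.967). PYCR1 shares exon sequence on the same strand with MYADML2, which was 0.019 to 0.237 FPKM over the libraries.

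GPT2 (chromosome 16, 46884378 to 46931297, plus strand), which makes alanine from pyruvate, was the transaminase with the widest range, its highest library 5.57 times its lowest. It was 12.4 and 10.65 FPKM in SCR pools, 4.82 and 7.49 in the FOXK1 pools, and 6.20 and 6.44 in the FOXK2 pools. All 4 FOXK pools were lower, and the 2 FOXK1 pools differed from each other more than the FOXK2 pools did. The FOXK1 mean differed from the SCR mean by -46.5% (log2 difference -0.83, SE 0.21, no test). For FOXK2 the log2 difference was -0.77 (SE 0.11, limma adjusted p = 0.0687), a mean difference of -45.2% that did not pass the test. The authors' deposited table lists -0.90 with an adjusted p of 1.39e-19 for this comparison.

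GPT2 was 20.8, 19.1 and 18.1 FPKM in the parental clones and 26.9, 23.3 and 25.3 in the ASXL1 knockout clones. Every knockout clone lay above every parental clone. The rise was 0.37 on the log2 scale (SE 0.08, limma adjusted p = 0.0222). It lost the call without parental replicate 2 (limma adjusted p = 0.0769), ASXL1 knockout replicate 1 (0.0843) or ASXL1 knockout replicate 3 (0.0789). The authors' deposited table lists 0.23 with an adjusted p of 0.0304. SCR pools and parental clones also stood apart for GPT2, at means of 11.5 and 19.3 FPKM. Guide treatment, pool or clone and any processing difference cannot be told apart there.

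GOT1 (chromosome 10, 99396870 to 99431569, minus strand), the cytosolic aspartate transaminase, changed little in the pools. It was 74.9 and 68.7 FPKM in SCR pools, 64.2 and 66.6 in the FOXK1 pools, and 63.7 and 67.2 in the FOXK2 pools. The FOXK pools lay below both SCR pools by small margins, with a log2 difference of -0.13 in both comparisons (SE 0.06 for FOXK1, without a test, and SE 0.07 with a limma adjusted p of 0.351 for FOXK2). GOT1 was 68.7, 91.2 and 106 FPKM in the parental clones and 103, 105 and 109.9 in the ASXL1 knockout clones. The groups overlap because 1 parental clone was as high as the knockout clones (log2 difference 0.28, SE 0.15, limma adjusted p = 0.213), and the authors' deposited table lists 0.27 with an adjusted p of 0.0295. Without parental replicate 1 the difference was 0.10, and without parental replicate 3 it was 0.42 (limma adjusted p = 0.0577). GOT1 overlaps AL391684.1 on the opposite strand, which was 0.549 to 1.15 FPKM, and whether counting used strand is not given in the sources used here. A GOT1 promoter also holds the amino acid response element core, on the strand opposite to the gene, 198 bases before a start. This match too lies within an annotated exon of its own gene. It is shown beside that of ASNS.
GOT1, chr10:99430804-99430833, minus strand: aattgcattggTTGCATCAttctcggcagc

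GOT2 (chromosome 16, 58707131 to 58734357, minus strand), its mitochondrial partner, was the steadiest of the 8 genes, with its highest library 1.18 times its lowest. It was 103 and 102 FPKM in SCR pools, 101 and 98.2 in the FOXK1 pools, and 94.6 and 94.8 in the FOXK2 pools. The log2 differences were -0.04 (SE 0.04) for FOXK1, without a test, and -0.12 (SE 0.05, limma adjusted p = 0.260) for FOXK2. In the clones it was 95.4, 98.03 and 104 FPKM in parental and 93.3, 93.4 and 88.1 in ASXL1 knockout libraries. The knockout clones were all lower by a small margin (log2 difference -0.11, SE 0.05, limma adjusted p = 0.172). The median gene of that comparison was at -0.06, and with median-ratio scaling GOT2 was at -0.05 (limma adjusted p = 0.469).

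**Figure D2:**
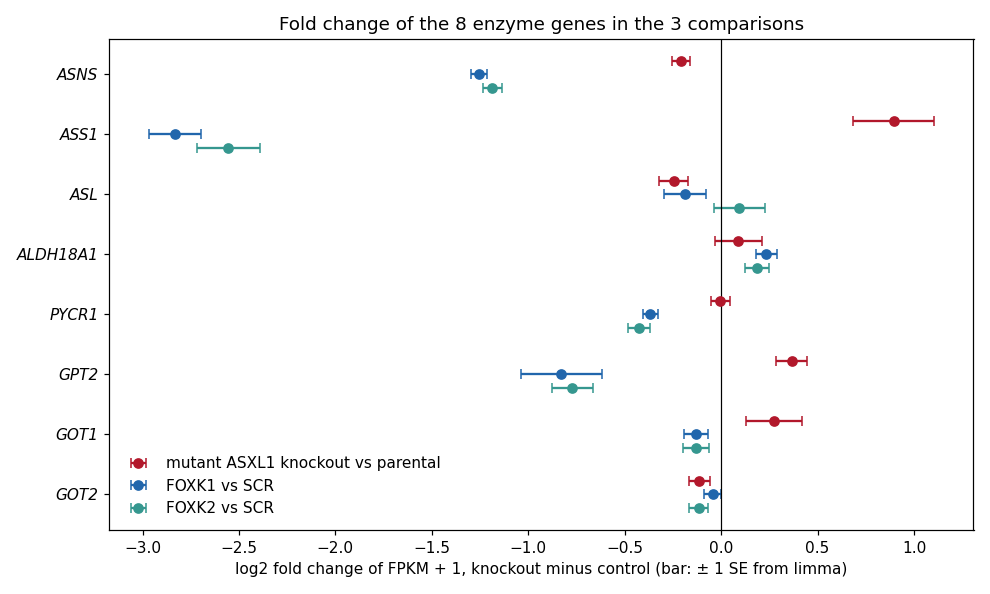
Log2 fold change of FPKM + 1, knockout minus control, for the 8 enzyme genes (points) with ± 1 SE from limma (bars) in the 3 comparisons. ASS1 lies at -2.83 and -2.56 in the FOXK1 and FOXK2 comparisons and at 0.90 in the ASXL1 comparison; the FOXK comparisons share their SCR libraries.

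Across the FOXK2 comparison, limma called 2 of the 8 genes lower, ASNS and ASS1, where 1.02% of 13672 tested genes were called, 0.87% lower. It called 0 higher, against 0.146% of tested genes, while at an unadjusted p under 0.05 the 8 genes gave 4 lower and 1 higher, beside 10.5% of tested genes lower and 10.2% higher. The pools did not overlap for 7 of the 8 genes, 6 lower and 1 higher, where 54% of tested genes did not overlap, 24.8% lower and 29.2% higher. In the FOXK1 comparison none of the 8 overlapped, 7 lower and 1 higher, against 54.9% of 13697 tested genes, 23.6% lower and 31.3% higher. Limma called 1.83% of these tested genes, 1.15% lower and 0.679% higher. The median log2 difference over the 8 genes was -0.28 in both FOXK comparisons, against 0.02 (FOXK1) and 0.01 (FOXK2) over all tested genes. Nothing is read from the members' FOXK1 counts or median, because these values were used to choose them. The FOXK2 counts and median rest on the same 2 SCR libraries, so they are not independent of that choice and nothing is read from them either.

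Of the 8 genes, 6 were lower in all 4 FOXK pools than in both SCR pools, an order held by 15.8% of 14055 genes, and 5 of them (ASNS, ASS1, PYCR1, GPT2 and GOT1) were below the other 8 libraries as well, beside 7.3%. ALDH18A1 alone was above both SCR pools in all 4, beside 20.4%. Nothing is read from these counts, because they include the FOXK1 and SCR values used in choosing the genes. Both comparisons use the same 2 SCR libraries, so a shared direction is partly fixed by them. The FOXK2 minus FOXK1 difference does not involve the SCR pools, but its SE comes from a joint fit of the 6 pools, which includes them. The difference was 0.28 (SE 0.18) for ASS1, -0.06 (SE 0.05) for PYCR1, 0.06 (SE 0.19) for GPT2 and 0.001 (SE 0.06) for GOT1, all with overlapping pools. Without overlap were ASNS at 0.07 (SE 0.04), ASL at 0.28 (SE 0.12), ALDH18A1 at -0.05 (SE 0.05) and GOT2 at -0.07 (SE 0.04). The share of all genes without overlap between these pools was not computed, so nothing is read from that. No test is given for these differences.

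In the ASXL1 comparison limma called 3 of the 8 genes, 2 higher (ASS1 and GPT2) and 1 lower (ASNS), beside 22.4% of 13597 tested genes in either direction, 7.91% higher and 14.4% lower. Groups did not overlap for 5 of the 8 genes, 3 lower and 2 higher, against 42.9% of all tested genes, 26.6% lower and 16.3% higher. The median over the 8 genes was 0.04, against -0.06 over all tested genes. Without parental replicate 2 or ASXL1 knockout replicate 1, limma called 0 of the 8 genes, and without ASXL1 knockout replicate 3 it called 1. Over all tested genes these fits called 1445 of 13935, 1315 of 13988 and 1287 of 14001, against 3039 of 13597 with every library. Nothing is read from the lower member counts.

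Group means of ASNS ran from parental clones at 273.9 ± 7.58 FPKM (SD, n = 3) through ASXL1 knockout clones at 237.2 ± 10.4, SCR pools at 202.7 ± 1.67 (n = 2) and FOXK2 pools at 88.5 ± 1.48 to FOXK1 pools at 84.3 ± 1.87. No neighbours in that order overlapped. ASS1 ran from ASXL1 knockout clones at 42.0 ± 6.02, through SCR pools at 32.4 ± 0.301 and parental clones at 22.6 ± 6.64, to the FOXK2 pools at 4.76 ± 1.24 and FOXK1 pools at 3.72 ± 0.789, with only the last pair overlapping. GPT2 ran from ASXL1 knockout clones at 25.2 ± 1.77, through parental clones at 19.3 ± 1.36 and SCR pools at 11.5 ± 1.23, to FOXK2 pools at 6.32 ± 0.170 and FOXK1 pools at 6.16 ± 1.89, which overlapped. These orders run across clones and pools made in different ways and are given without a test.

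Neighbouring pathway genes were counted from 6 lists, chosen like the 8 genes with earlier results known, so their calls in the FOXK comparisons are not independent evidence of a direction. With any 1 pool left out limma called 0 genes of any list in either FOXK comparison, while the folds of ARG2, PSAT1, ATF5 and TRIB3 kept their sign. In the FOXK2 comparison, where 1.02% of all tested genes were called, limma called 1 of 15 tested arginine, urea cycle and polyamine genes. It was ARG2, the mitochondrial arginase, which fell from 18.6 ± 2.39 FPKM to 8.94 ± 0.109 (n = 2 in each group, log2 change -0.97, limma adjusted p = 0.0446). In the FOXK1 pools ARG2 was 11.4 ± 0.499 (log2 difference -0.65, limma adjusted p = 0.0714), and limma called 0 of the 15, with 9 higher and 1 lower at an unadjusted p under 0.05. Of all genes tested for FOXK1, 13.0% were higher and 9.83% lower at that p, and for FOXK2 10.2% and 10.5%. ODC1, the first enzyme of polyamine synthesis, was at 0.24 in FOXK1 (limma adjusted p = 0.0728) and 0.25 in FOXK2 pools (0.114).

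Of 7 tested proline and ornithine genes limma called 0 in either FOXK comparison. At an unadjusted p under 0.05 there were 4 higher and 0 lower for FOXK1, and 3 higher and 1 lower for FOXK2, beside 13.0% and 9.83% of all tested genes for FOXK1 and 10.2% and 10.5% for FOXK2. OAT, which links ornithine to the proline route, was 139.8 ± 2.66 FPKM in SCR, 176.0 ± 5.44 in FOXK1 (limma adjusted p = 0.0543) and 167.3 ± 1.87 in FOXK2 pools (limma adjusted p = 0.103). None of the 7 tested asparagine and aspartate genes was called by limma in any of the 3 comparisons, and 0 had an unadjusted p under 0.05.

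Among glutamate, glutamine and other transaminase genes, limma called PSAT1 alone, of 8 tested for FOXK1 and 9 for FOXK2. Of all tested genes 1.83% were called for FOXK1 and 1.02% for FOXK2. PSAT1, the transaminase of serine synthesis, fell from 118.8 ± 2.76 FPKM to 53.7 ± 2.15 in FOXK1 (log2 change -1.13, limma adjusted p = 0.0078) and to 56.2 ± 0.870 in FOXK2 pools (-1.07, limma adjusted p = 0.0167). With 1 pool left out these differences ran from -1.17 to -1.09 and from -1.09 to -1.04. Limma called 0 of 7 tested malate-aspartate shuttle genes in either comparison. At an unadjusted p under 0.05 there were 2 higher and 0 lower for FOXK1, and 1 higher and 0 lower for FOXK2. Of all tested genes 13.0% were higher and 9.83% lower at that p for FOXK1, and 10.2% and 10.5% for FOXK2.

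Of 9 amino acid response regulators, limma called 2 lower and 0 higher in each FOXK comparison. Of all tested genes 1.15% were called lower and 0.679% higher for FOXK1, and 0.87% and 0.146% for FOXK2. ATF5, a stress response transcription factor, fell from 115.0 ± 0.255 FPKM to 24.7 ± 0.887 in FOXK1 (log2 change -2.17, limma adjusted p = 0.0017) and 31.5 ± 1.41 in FOXK2 pools (-1.84, limma adjusted p = 0.0081). TRIB3, a pseudokinase that ATF4 induces, fell from 70.6 ± 3.80 to 32.6 ± 0.0566 in FOXK1 (-1.09, limma adjusted p = 0.0122) and 34.5 ± 0.241 in FOXK2 pools (-1.01, limma adjusted p = 0.0167). ATF4, named after its values were seen, was 463.2 ± 23.3 in SCR, 397.7 ± 8.87 in FOXK1 (limma adjusted p = 0.109) and 409.8 ± 10.8 in FOXK2 pools (limma adjusted p = 0.201). CEBPG, a partner of ATF4, was at -0.48 (limma adjusted p = 0.0570) and -0.49 (0.0881). The regulators did not all go the same way. Of the 9 log2 changes, 1 was positive and 8 were negative for FOXK1, and 4 were positive and 5 negative for FOXK2. DDIT3 was at -0.05 for FOXK1 (limma adjusted p = 0.761) and 0.18 for FOXK2 (0.306).

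In the ASXL1 comparison limma called 3 of the 9 regulators higher and 0 lower, and all 3 calls held with any 1 library left out. Of all tested genes 7.91% were called higher and 14.4% lower. TRIB3 rose from 71.4 ± 0.233 to 139.1 ± 15.1 FPKM (n = 3 in each group, log2 change 0.95, limma adjusted p = 0.0013). DDIT3, the CHOP transcription factor, rose from 48.4 ± 6.46 to 79.2 ± 4.77 (0.71, limma adjusted p = 0.0056), and MYC rose from 240.6 ± 14.1 to 300.6 ± 3.74 (0.32, limma adjusted p = 0.0082).

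Of 9 tested glutamate and transaminase genes in the ASXL1 comparison, limma called 1 higher and 1 lower, a share near the 22.4% of all tested genes that were called. GLUL, which makes glutamine from glutamate, fell from 620.4 ± 9.90 to 302.5 ± 16.4 FPKM (log2 change -1.04, limma adjusted p = 0.0002). GLUD2, a glutamate dehydrogenase near-identical to GLUD1, rose from 0.788 ± 0.202 to 1.53 ± 0.141 (0.50, limma adjusted p = 0.0485). Its parental mean was under 1 FPKM, so it passed the filter on low values through the knockout clones, and nothing is read from its call. Its reads may be shared with GLUD1, and the call was lost with any 1 library left out (0.0602 to 0.164). Of 16 arginine and polyamine genes limma called 2 higher and 3 lower, beside 7.91% and 14.4% of all tested genes, a background that also stands beside the proline and shuttle counts below. AZIN1, which spares ornithine decarboxylase from breakdown, rose by 0.53 (limma adjusted p = 0.0021), and CPS1, the carbamoyl phosphate enzyme of the urea cycle, rose from 0.328 ± 0.114 to 1.94 ± 0.552 (limma adjusted p = 0.0074). CPS1 passed the filter on low values only through the knockout clones. It could therefore hardly have been called lower, and nothing is read from its call. DDAH2 fell from 18.6 ± 1.55 to 11.7 ± 0.830 (-0.62, limma adjusted p = 0.0054). The other 2 that fell, named after their values were seen, were OAZ1 and SMS. The calls of GLUL, AZIN1, DDAH2 and OAZ1 held with any 1 library left out, and that of SMS held only without parental replicate 1. Of 7 proline and ornithine genes 1 was called higher and 2 lower. EPRS rose by 0.17 (limma adjusted p = 0.0429) and ALDH4A1, which breaks proline down, and PEPD fell by 0.56 (0.0166) and 0.38 (0.0307). EPRS lost its call with any 1 library left out (0.0776 to 0.137), ALDH4A1 without parental replicate 2 (0.0509) or ASXL1 knockout replicate 2 (0.0516) or 3 (0.0657), and PEPD without parental replicate 2 (0.0591) or ASXL1 knockout replicate 1 (0.0840), 2 (0.0615) or 3 (0.105). MDH1, the cytosolic malate dehydrogenase, was the 1 of 7 shuttle genes called, lower by a log2 change of -0.21 (limma adjusted p = 0.0191). Its call was lost without parental replicate 2 (0.0840) or ASXL1 knockout replicate 1 (0.0711), 2 (0.0550) or 3 (0.0715).

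**Figure D3:**
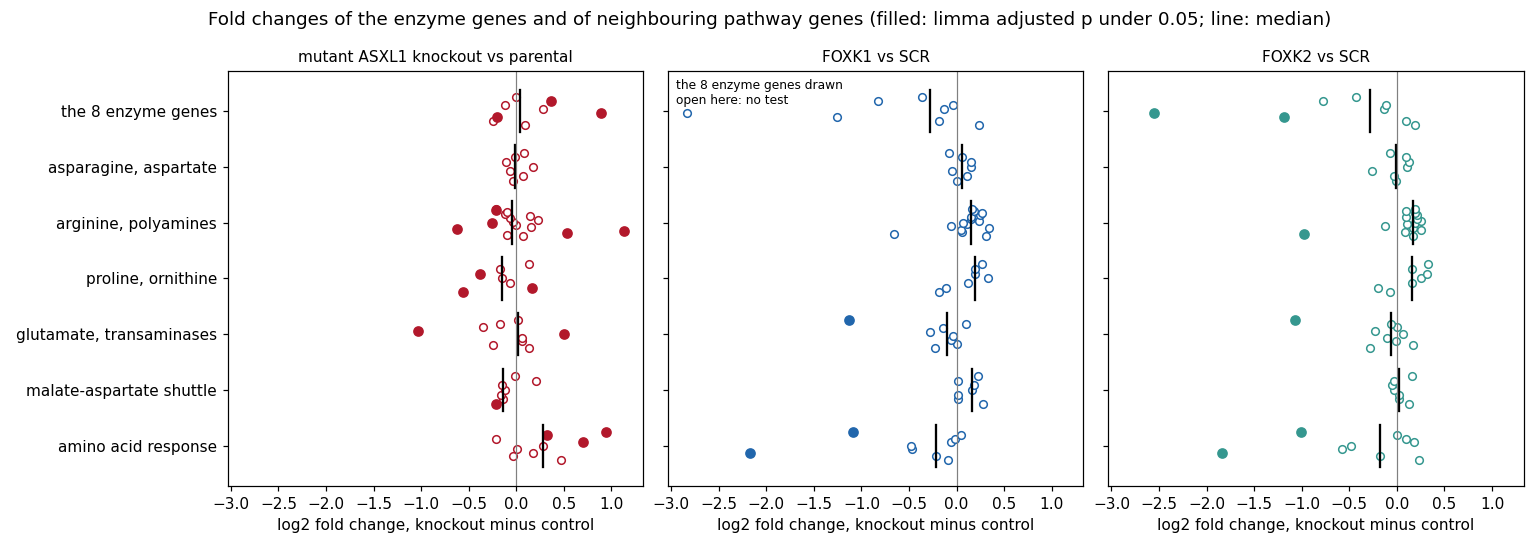
Log2 fold change, knockout minus control, of each tested gene in the 6 pathway lists and the 8 enzyme genes; filled points passed limma at an adjusted p under 0.05, black lines are list medians, and the 8 enzyme genes are drawn open for FOXK1 because no test is given. Each panel is 1 comparison on the same axis, and ARG2, PSAT1, ATF5 and TRIB3 are the filled list points to the left in the FOXK2 panel.

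The genes whose 5 group means ran most like those of ASNS were searched among 9586 genes with a group mean of at least 5 FPKM. Likeness was the root mean square difference of log2 profiles over the 5 groups, each centred on the gene's own mean. RCSD1 was nearest to ASNS at 0.08, then PSAT1 at 0.12, FMNL1 and PIP5KL1 at 0.13 and LCP2 at 0.15. ASS1 had no neighbour as near: PRSS2 stood at 0.29, PHGDH, the first enzyme of serine synthesis, at 0.31, ATP2A3 at 0.40, AKNA at 0.42 and UNC5B at 0.44. This distance is not scaled to a gene's range, and the highest library was 14.6 times the lowest for ASS1 but 3.36 times for ASNS. The larger distances of ASS1 are therefore not read as a rarer profile. The profiles also include the FOXK1 and SCR values used in choosing the genes. With 5 group means as points, the search is a description with no p.

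**Figure D4:**
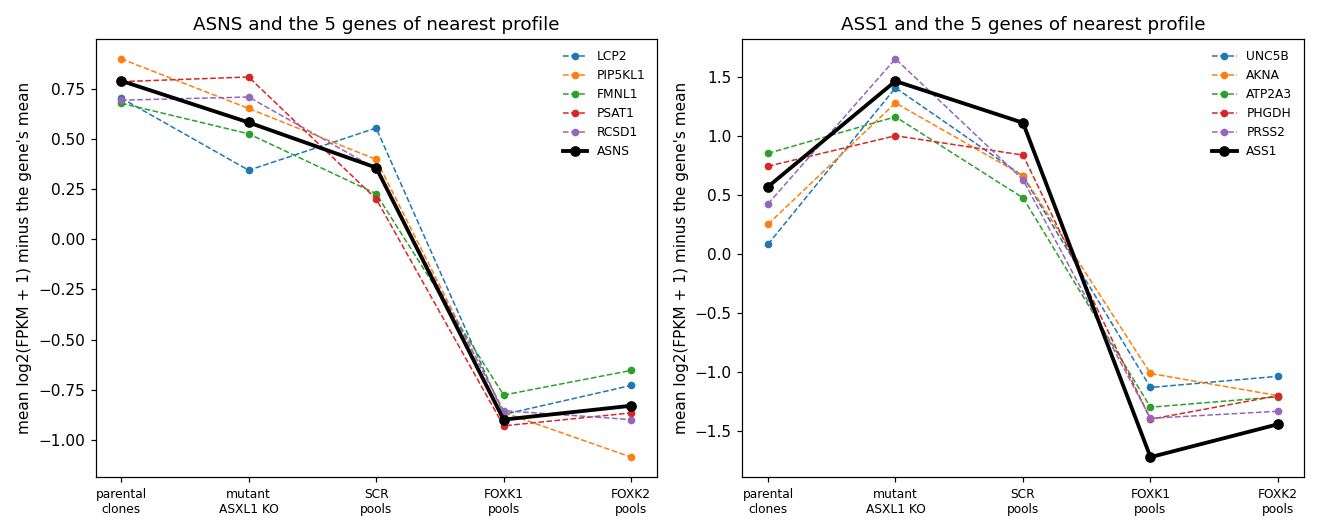
Mean log2(FPKM + 1) of each of the 5 groups minus the gene's mean over the groups (vertical axis), for ASNS and ASS1 (thick black) and the 5 genes nearest to each (dashed). ASNS lies at 0.79 in parental clones and -0.90 in FOXK1 pools, and ASS1 at 1.47 in ASXL1 knockout clones and -1.72 in FOXK1 pools.

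Promoter windows of 6 of the 8 members were in the RefSeq table, 8 windows in all, and PYCR1 and GPT2 had no entry. None of the 8 windows holds the forkhead core GTAAACA on either strand, which 3.42% of all promoters hold. At that share most sets of 8 windows would hold none, so nothing is read from its absence. An E-box, CACGTG, which 7.26% of promoters hold, occurs 71 bases before the second ASS1 start and 136 bases before an ALDH18A1 start. ASL and GOT2 windows hold none of the 3 motifs. The E-box stretches are printed because ASS1 and ALDH18A1 hold the same letters and stood on opposite sides of the SCR pools. A match is a description, not a binding site.
ASS1, chr9:130444850-130444928, plus strand: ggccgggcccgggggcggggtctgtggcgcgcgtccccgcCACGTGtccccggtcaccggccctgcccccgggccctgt
ALDH18A1, chr10:95656802-95656887, minus strand: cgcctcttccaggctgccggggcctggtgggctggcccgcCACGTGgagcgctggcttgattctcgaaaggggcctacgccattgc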

How the data were processed

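Total RNA of 12 K562 libraries was sequenced with paired ends, per the labels' protocols. The authors deposited FPKM per gene, per the file headers, with log2 fold changes and adjusted p-values of their own comparisons. The submitters' processing notes name GRCh38.p10, TopHat, Bowtie, RSEM, edgeR and Cufflinks, with no role or version. In each library 94.1% to 100% of values under 0.3 FPKM were multiples of a step of 0.0095 to 0.01036 (tolerance 0.00051), the same for all genes; no counts were derived.

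FPKM were joined by gene identifier, and log2(FPKM + 1) was analysed in limma 3.58.1 (R 4.3.3, variance trend) over all genes that passed the filter. Each comparison had a fit of its own, two-sided, with Benjamini-Hochberg adjustment and a threshold of 0.05. A change is a log2 difference of FPKM + 1, which understates low genes. The SCR values were identical in both tables that hold them. The limma fit was tested on simulated data. The 8 genes, the lists and the tests were chosen with earlier results of these data known. Named genes are the 8, up to 3 of smallest adjusted p per list, the targeted genes and the 5 nearest profiles of ASNS and ASS1; ATF4, OAZ1, SMS and the moving cell markers were named after their values were seen. The labels do not say that libraries are separate cultures, so p-values measure the spread between these libraries, which may be technical. Replicate numbers were not used as pairs. Alternatives were other amounts added, filters, scalings, fits and leaving out each library. Positions came from GENCODE 29. Python 3.11.15 prepared the tables.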

Additional observations from a re-analysis of the deposited data

How the results depend on the processing

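Genes called by limma in the ASXL1 comparison numbered 3039, but 1947 without a filter on low FPKM and 1287 to 2699 with 1 library left out. FOXK1 calls numbered 250, but 10 without a filter, 412 with a filter of 5 FPKM, 69 without a variance trend, 470 in a joint fit of 6 pools and 0 with any 1 pool left out (1896 to 2492 at an unadjusted p under 0.05). FOXK2 calls numbered 139, but 0 without a filter (3496 at an unadjusted p under 0.05), 52 without a trend, 314 in the joint fit and 0 with any 1 pool left out (1497 to 2312 unadjusted). Of the 8 enzyme genes, 3 were called in the ASXL1 comparison, 4 with a filter of 5 FPKM (ASL added), 1 without a filter and 0 to 3 with 1 library left out. For FOXK2, 2 were called, 0 without a filter (6 at an unadjusted p under 0.05) and 0 with any 1 pool left out (4 unadjusted). The cause was not tested beyond the fewer libraries or more genes tested in those fits.

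With the replicate block, calls were 1824 (ASXL1), 37 (FOXK1) and 39 (FOXK2), and ASNS lost its ASXL1 call (limma adjusted p = 0.0590). Deviations of same-numbered libraries correlated at -0.13 to 0.08 over all tested genes. That gives no sign of pairing by number, but with so few libraries it cannot exclude it.

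Directions reversed only for uncalled changes. In the ASXL1 comparison ALDH18A1 was -0.049 without parental replicate 1 and ran to 0.20 with others left out. PYCR1 was 0.058 with median-ratio scaling and 0.034 with upper-quartile scaling, and with 1 library left out it ran from -0.042 to 0.040, above 0 without parental replicate 3 or ASXL1 knockout replicate 1. ASL in FOXK2 pools ran from -0.038 to 0.23 with 1 pool left out, below 0 without SCR replicate 1 or FOXK2 replicate 2. Without a filter ASS1 lost its ASXL1 call (limma adjusted p = 0.0787), and GPT2 lost its own in a joint fit of 12 libraries (0.0554). Over all alternatives ASNS stayed at -1.20 to -1.17 and ASS1 at -2.78 to -2.33 in FOXK2 pools. Higher calls made up 35.4% of ASXL1 calls, and 51% with median-ratio scaling. They made up 37.2% of FOXK1 calls, and 20% without a filter, 18.8% without a trend, 16.2% with the block and 48.1% in the joint fit. They made up 14.4% of FOXK2 calls, and 28.98% in the joint fit. Read depth is unknown, so no limit of detection is given.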
